A study of Mus musculus with 12 samples.

Results

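The mitosis and kinetochore genes are 49 genes that were chosen by name for their place in chromosome segregation, among the 42450 gene identifiers of the count table. All 49 were found by symbol and passed the filter on low counts, which left 19410 genes to test. PolyA+ RNA was measured in E14tg2a.4, a mouse embryonic stem cell (ESC) line without an engineered allele, after transfection of 50 nM small interfering RNA (siRNA) against *Srrm2*, which encodes a large protein of nuclear speckles (Srrm2-KD), or, as the control, against Gl2, the luciferase gene of the firefly, which mouse cells do not carry (Gl2-KD). The cells were grown on gelatin in medium with serum and LIF, the cytokine that sustains self-renewal. They were then kept in serum-free ESGRO medium with LIF for 24 h or 72 h, and the cells collected at 72 h were transfected again with their siRNA. Each of 3 experiments held both siRNAs at both times, so that 4 groups of 3 libraries gave 12 libraries. The cells were not sorted by cell cycle stage, so that fewer cells in mitosis and less mRNA per cell cannot be told apart.

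During mitosis, microtubules of the spindle pull the sister chromatids apart at the kinetochore, a protein assembly that is built on centromeric chromatin marked by the histone H3 variant CENP-A. The inner kinetochore proteins sit on this chromatin and recruit the Mis12 complex, Knl1 and the Ndc80 complex, which holds the microtubule. Until every kinetochore is attached, the spindle assembly checkpoint keeps Cdc20 from activating the anaphase-promoting complex (APC/C), the ubiquitin ligase that triggers the destruction of securin and cyclin B. Transcription of many of these genes peaks in G2 and mitosis, under the MuvB complex together with B-Myb (*Mybl2*) and FoxM1, and ESC in LIF divide rapidly with a short G1 phase.

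The promoters of these genes are known for CCAAT boxes and for the cell cycle genes homology region (CHR), the element through which MuvB binds. RefSeq promoter windows of 300 bases (GRCm38.p6, 250 before to 50 after the transcription start) were matched for 41 of the 49 genes, with 45 windows in all, and *Spc24*, *Nsl1*, *Aurkb*, *Incenp*, *Ccna2*, *Kif20a*, *Tpx2* and *Foxm1* had none. The letters CCAAT occurred on either strand in 32 of the 45 windows (71.1%) and in 37.4% of all 32851 promoter windows, and the CHR letters TTTGAA or TTCGAA in 26 windows (57.8%) against 19.2% of all. Both stood in 23 windows, or 51.1% against 7.52% of all, while an E2F-like site (TTTCGCGC, TTTGGCGC, TTTCCCGC or TTTGGCGG) occurred in 4 windows (8.89%) and in 2.37% of all. TTCGAA reads the same on both strands, and a match of letters is no evidence of binding. The 150 bases before the start are shown for 4 genes with such letters and for *Knl1*, whose stretch held none of them, since these genes recur below. The full window of *Knl1* held 1 match to the CHR letters and that of *Ccnb2* held 2, none of them within the stretch shown. Capitals mark CCAAT and CHR letters on either strand.
Top2a, chr11:99024190-99024339, minus strand: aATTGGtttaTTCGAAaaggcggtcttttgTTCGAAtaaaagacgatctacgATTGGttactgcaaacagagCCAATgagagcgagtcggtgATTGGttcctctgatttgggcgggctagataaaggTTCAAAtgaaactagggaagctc
Mki67, chr7:135716380-135716529, minus strand: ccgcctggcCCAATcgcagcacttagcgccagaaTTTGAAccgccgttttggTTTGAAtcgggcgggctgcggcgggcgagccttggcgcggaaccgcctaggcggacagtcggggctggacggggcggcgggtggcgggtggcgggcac
Kif11, chr19:37376232-37376381, plus strand: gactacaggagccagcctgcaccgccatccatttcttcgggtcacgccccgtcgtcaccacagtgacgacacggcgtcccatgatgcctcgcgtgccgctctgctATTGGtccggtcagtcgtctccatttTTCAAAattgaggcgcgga
Ccnb2, chr9:70421555-70421704, minus strand: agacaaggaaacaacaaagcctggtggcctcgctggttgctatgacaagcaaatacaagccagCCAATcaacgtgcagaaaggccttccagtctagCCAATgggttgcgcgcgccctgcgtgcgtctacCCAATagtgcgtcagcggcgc
Knl1, chr2:119046969-119047118, plus strand: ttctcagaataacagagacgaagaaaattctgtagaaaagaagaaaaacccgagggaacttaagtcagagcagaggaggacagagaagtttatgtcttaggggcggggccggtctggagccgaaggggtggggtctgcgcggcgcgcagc

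*Srrm2* itself was measured at 911, 496 and 449 CPM (estimated counts scaled by library size and TMM factor) in experiments 1, 2 and 3 in Gl2-KD cells at 24 h and at 517, 154 and 199.8 CPM in Srrm2-KD cells. At 72 h it stood at 962, 479 and 442 CPM and at 461, 182 and 217 CPM. Knockdown libraries stood below their controls in 3 of 3 experiments at each time, by a log2 fold change of -1.22 ± 0.14 (SE; adjusted p = 0.0663, edgeR) at 24 h and of -1.16 ± 0.14 (adjusted p = 0.0991) at 72 h, and DESeq2 gave adjusted p-values of 3.37e-11 and 1.76e-09. The siRNA thus lowered *Srrm2* mRNA to 43.0% and 44.6% of the control level and did not remove it. Library totals were 73933196 to 153343831 estimated counts. The 4 libraries of experiment 1 stood apart from the other 8 on the first principal component, which held 42% of the variance. Summed over 10 markers of pluripotent cells the level was 5182 to 7837 CPM, against 5.58 to 26.7 CPM for 10 fibroblast markers, of which 8 averaged below 1 CPM. The 10 markers each of extraembryonic endoderm, trophoblast, and mesoderm and neural cells summed to 129.9 to 309.6, 84.3 to 229.9 and 78.2 to 172 CPM, and their part in any result was not tested.

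Mitosis and kinetochore genes were expressed in every library. Their means over the 12 libraries ran from 16.7 CPM in *Cenpk* to 1019.5 CPM in *Mybl2*, with a median of 117 CPM. Per kilobase of transcript, which allows levels of different genes to be compared, *Mybl2* (279 CPM per kb), *Top2a* (191), *Cdc20* (175) and *Ccnb1* (156) were highest, and *Knl1* was lowest (8.28). The highest library exceeded the lowest by 1.19-fold in *Nsl1* to 3.82-fold in *Pttg1*, with a median of 1.64-fold, and by less than 2-fold in 37 of the 49 genes. For the 7501 genes with a mean at or above that of *Cenpk*, the median was 1.9-fold. Together, the 49 genes held 0.786% to 0.866% of the scaled counts. Their summed level at 24 h was 8098, 8144 and 8150.4 CPM in Gl2-KD and 8194, 8151 and 8281 CPM in Srrm2-KD in experiments 1, 2 and 3, and at 72 h it was 8664, 8347 and 7861 CPM in Gl2-KD and 8359, 8516 and 7874 CPM in Srrm2-KD. At 24 h the sums did not overlap, although the nearest were 8150.4 and 8151 CPM, and at 72 h they did, with the higher sum in Srrm2-KD in 2 of 3 experiments.

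No gene of the set passed the threshold of the test for *Srrm2* knockdown at either time. At 24 h, 0 of 49 had an adjusted p below 0.05 in edgeR (background 0.0% of 19410 genes), and 2 of 49 (4.08%) had an unadjusted p below 0.05, against 2.62% of all genes. The median log2 fold change was 0.02 for the 49 genes and 0.01 for all genes, 19 genes had a negative and 30 a positive value, and 47 lay within 0.20 of no change. At 72 h, 0 of 49 were called (background 0.0%) and 3 of 49 (6.12%) had an unadjusted p below 0.05, against 12.9% of all genes. All 3 of these, *Spc24*, *Cenpt* and *Aurkb*, were lower in Srrm2-KD. The median at 72 h was 0.04, against -0.02 for all genes, with 20 negative and 29 positive values. The 95% interval lay within a 1.5-fold change in either direction for 48 of the 49 genes at 24 h, *Spc24* being the exception, and for 45 at 72 h, where *Spc24*, *Cenpt*, *Aurkb* and *Pttg1* reached beyond it. With any 1 library or experiment left out, experiment 1 included, 0 of the 49 were called at either time. The standard errors were 0.08 to 0.17 with a median of 0.10 at both times.

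**Figure D1:**
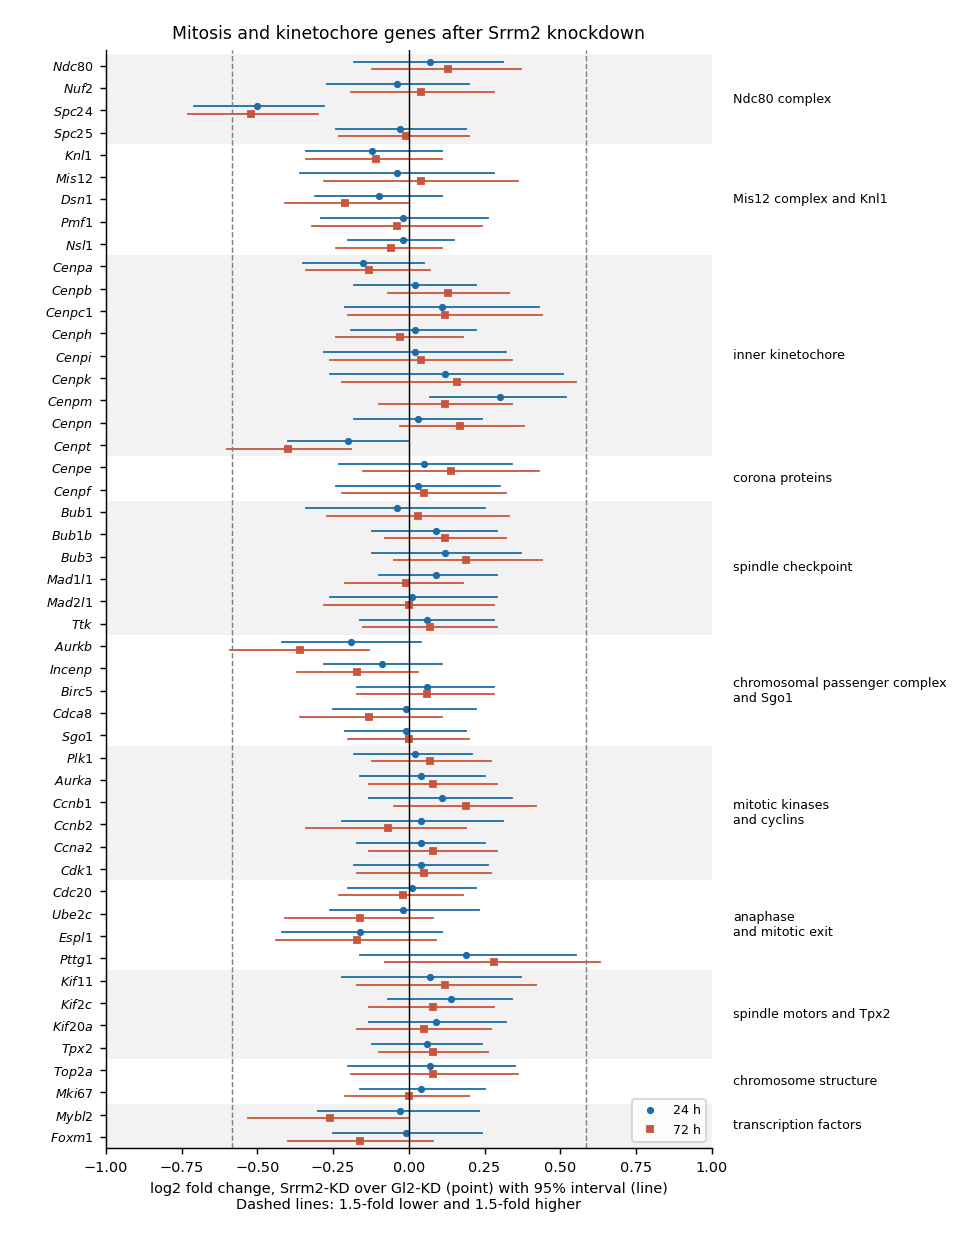
Log2 fold change of Srrm2-KD over Gl2-KD for the 49 genes at 24 h (blue circles) and 72 h (red squares), with 95% intervals from the edgeR fit of 12 libraries (lines); genes are grouped by role, and dashed lines mark a 1.5-fold change. *Spc24* stands to the left at both times and *Cenpt* and *Aurkb* at 72 h, while most other points lie close to 0.

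Counted by experiment, 6 genes had lower Srrm2-KD values in all 3 experiments at 24 h (12.2%, against 15.4% of all genes) and 14 were higher (28.6%, against 17.3%). The 14 included *Bub1b*, *Bub3*, *Ttk*, *Ccnb1*, *Cdk1*, *Aurka* and *Kif20a*. At 72 h, 12 were lower in 3 of 3 (24.5%, against 23.1%) and 11 higher (22.4%, against 18.8%). The groups did not overlap for *Cenpt*, *Bub1b* and *Ttk* at 24 h (6.12%, against 3.44% of all genes) and for *Spc24*, *Cenpt*, *Aurkb* and *Espl1* at 72 h (8.16%, against 6.66%). Within experiments 1, 2 and 3, the median difference of the 49 genes was 0.00, 0.04 and 0.04 at 24 h and -0.07, 0.07 and 0.05 at 72 h on the log2(CPM + 0.5) scale, so that its sign was not shared by the experiments at 72 h.

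Among the 4 subunits of the Ndc80 complex, *Spc24* had the lowest log2 fold change after knockdown, without passing the threshold of the main test. *Spc24* (chr9:21755442-21760303, minus strand, GRCm38) encodes the subunit that, paired with Spc25, anchors the complex to the kinetochore. In Gl2-KD cells, *Spc24* stood at 57.3, 92.1 and 86.7 CPM at 24 h and at 64.1, 83.8 and 89.6 CPM at 72 h, and in Srrm2-KD cells at 48.1, 56.6 and 59.7 CPM and at 42.7, 64.1 and 60.2 CPM. The 3 values of a group are always given in the order of experiments 1, 2 and 3. Each Srrm2-KD library lay below the Gl2-KD library of its own experiment, and at 72 h the groups did not overlap, although the highest Srrm2-KD and the lowest Gl2-KD library both rounded to 64.1 CPM, while at 24 h the Gl2-KD library of experiment 1 was within the range of Srrm2-KD. The log2 fold change was -0.50 (SE 0.10, 95% interval -0.71 to -0.28, adjusted p = 1.00) at 24 h and -0.52 (SE 0.10, 95% interval -0.73 to -0.30, adjusted p = 0.124) at 72 h in edgeR. DESeq2 called *Spc24* at both times (adjusted p = 0.00561 and 0.00116), and edgeR with its block narrowed to the pair of libraries of 1 experiment and time called it at 72 h (adjusted p = 0.0277) and not at 24 h (0.275). Leaving out any 1 library or experiment kept the log2 fold change between -0.62 and -0.39 at 24 h and between -0.59 and -0.48 at 72 h.

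*Ndc80*, whose product touches the microtubule, had overlapping values under both siRNAs. *Ndc80* was measured at 78.4, 54.3 and 58.5 CPM in Gl2-KD and 77.3, 60.3 and 61.7 CPM in Srrm2-KD at 24 h, and at 74.5, 61.4 and 53.9 CPM and 67.9, 67.9 and 68.9 CPM at 72 h. Its log2 fold change was 0.07 (SE 0.11, 95% interval -0.18 to 0.31, adjusted p = 1.00) at 24 h and 0.13 (SE 0.11, 95% interval -0.12 to 0.37, adjusted p = 0.676) at 72 h. *Nuf2*, its partner, had log2 fold changes of -0.04 and 0.04, and *Spc25*, the partner of *Spc24*, of -0.03 and -0.01. The interval of *Spc25* at 72 h (-0.23 to 0.20) did not overlap that of *Spc24*, although the difference between these genes was not tested.

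In the Mis12 complex (*Mis12*, *Dsn1*, *Pmf1* and *Nsl1*), which links the Ndc80 complex to the inner kinetochore, and in *Knl1*, the scaffold that carries the Bub proteins, log2 fold changes were -0.12 to -0.02 at 24 h and -0.21 to 0.04 at 72 h. All 5 values at 24 h were negative and none had an unadjusted p below 0.05. *Dsn1* was the lowest at 72 h. Levels of *Dsn1* were 26.1, 20.8 and 29.4 CPM in Gl2-KD and 25.7, 20.5 and 24.7 CPM in Srrm2-KD at 24 h, and 30.8, 27.0 and 35.9 CPM and 28.8, 22.5 and 30.1 CPM at 72 h, which placed each Srrm2-KD library below that of its own experiment although the groups overlapped at both times. Its log2 fold change was -0.10 (SE 0.09, 95% interval -0.31 to 0.11, adjusted p = 1.00) at 24 h and -0.21 (SE 0.09, 95% interval -0.41 to 0.00, adjusted p = 0.395) at 72 h. *Knl1* differed between experiments far more than between siRNAs. In Gl2-KD cells, *Knl1* stood at 114, 42.1 and 46.7 CPM at 24 h and at 113, 49.5 and 43.9 CPM at 72 h, and in Srrm2-KD cells at 90.1, 42.9 and 45.5 CPM and at 98.4, 42.8 and 46.2 CPM. Knockdown gave a log2 fold change of -0.12 (SE 0.10, 95% interval -0.34 to 0.11, adjusted p = 1.00) and of -0.11 (SE 0.10, 95% interval -0.34 to 0.11, adjusted p = 0.676).

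Of the 9 inner kinetochore genes, *Cenpt* had the lowest log2 fold change after knockdown at both times and *Cenpm* the highest at 24 h. *Cenpt* (chr8:105844673-105853278, minus strand) encodes a DNA-binding protein that recruits the Ndc80 complex directly. *Cenpt* was measured at 57.0, 63.9 and 67.7 CPM in Gl2-KD and 56.1, 52.7 and 55.2 CPM in Srrm2-KD at 24 h, and at 70.9, 78.2 and 78.3 CPM and 60.1, 54.3 and 58.3 CPM at 72 h. At 72 h all 3 Srrm2-KD libraries lay below all 3 Gl2-KD libraries, and the Gl2-KD libraries at 72 h were themselves the highest of the 12. The log2 fold change was -0.20 (SE 0.09, 95% interval -0.40 to 0.00, adjusted p = 1.00) at 24 h and -0.40 (SE 0.09, 95% interval -0.60 to -0.19, adjusted p = 0.151) at 72 h, and the difference between both times was -0.20 (SE 0.13, 95% interval -0.48 to 0.09, adjusted p = 1.00). At 72 h *Cenpt* was called by DESeq2 (adjusted p = 0.0121) and by edgeR with the narrower block (0.0391). *Cenpt* overlaps the protein-coding gene *Tsnaxip1* on the opposite strand, and no source used here says whether the counts were estimated by strand. The same limit holds for others, since 11 of the 49 genes overlap a protein-coding gene. For 9 it lies on the opposite strand (*Cenpt*, *Mis12*, *Cenpk*, *Bub3*, *Cdca8*, *Ccna2*, *Cdc20*, *Ube2c* and *Kif20a*) and for 2 on the same strand (*Cenpb* and *Foxm1*).

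*Cenpm*, a further inner kinetochore subunit, exceeded its Gl2-KD value in every experiment at both times, with overlapping groups. Levels of *Cenpm* were 25.6, 48.8 and 43.8 CPM in Gl2-KD and 34.8, 59.5 and 49.3 CPM in Srrm2-KD at 24 h, and 37.7, 53.4 and 53.0 CPM and 39.2, 64.6 and 54.1 CPM at 72 h. Its log2 fold change was 0.30 (SE 0.10, 95% interval 0.07 to 0.52, adjusted p = 1.00) at 24 h and 0.12 (SE 0.10, 95% interval -0.10 to 0.34, adjusted p = 0.661) at 72 h. *Cenpa*, the centromeric histone, had values in the other direction. In Gl2-KD cells, *Cenpa* stood at 93.6, 141 and 129 CPM at 24 h and at 90.6, 111 and 132 CPM at 72 h, and in Srrm2-KD cells at 91.0, 115 and 120.4 CPM and at 78.1, 112 and 115 CPM, with a log2 fold change of -0.15 (SE 0.09, 95% interval -0.35 to 0.05, adjusted p = 1.00) and of -0.13 (SE 0.09, 95% interval -0.34 to 0.07, adjusted p = 0.572). The remaining 6, *Cenpb*, *Cenpc1*, *Cenph*, *Cenpi*, *Cenpk* and *Cenpn*, had log2 fold changes of 0.02 to 0.12 at 24 h and of -0.03 to 0.17 at 72 h.

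*Cenpe*, a kinesin of the outermost kinetochore, and *Cenpf*, which binds there in mitosis, had log2 fold changes of 0.05 and 0.03 at 24 h and of 0.14 and 0.05 at 72 h. *Cenpe* was measured at 169.8, 92.9 and 95.2 CPM in Gl2-KD and 158, 96.9 and 109 CPM in Srrm2-KD at 24 h, and at 173, 116 and 78.4 CPM and 182, 123 and 96.1 CPM at 72 h. In every group the library of experiment 1 was the highest. The 6 checkpoint genes *Bub1*, *Bub1b*, *Bub3*, *Mad1l1*, *Mad2l1* and *Ttk* had log2 fold changes of -0.04 to 0.12 at 24 h and of -0.01 to 0.19 at 72 h. Levels of *Bub1b* were 287, 289 and 274 CPM in Gl2-KD and 303, 294 and 305 CPM in Srrm2-KD at 24 h, and 320.5, 262 and 247 CPM and 331, 298 and 271 CPM at 72 h. *Bub1b* encodes BubR1, which inhibits Cdc20. Its Srrm2-KD libraries were above the Gl2-KD libraries at 24 h without overlap, by a log2 fold change of 0.09 (SE 0.09, 95% interval -0.12 to 0.29, adjusted p = 1.00), and at 72 h by 0.12 (SE 0.09, 95% interval -0.08 to 0.32, adjusted p = 0.625) with overlap.

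The chromosomal passenger complex corrects wrong attachments through its kinase Aurora B. *Aurkb* (chr11:69045647-69051664, plus strand), which encodes the kinase, had lower values after knockdown at 72 h without passing the threshold of the main test. In Gl2-KD cells, *Aurkb* stood at 75.0, 88.2 and 85.0 CPM at 24 h and at 76.6, 78.0 and 95.6 CPM at 72 h, and in Srrm2-KD cells at 75.0, 72.7 and 69.1 CPM and at 62.3, 60.0 and 72.4 CPM. At 24 h *Aurkb* differed by less than the rounding between siRNAs in experiment 1 and was lower in Srrm2-KD in experiments 2 and 3, and at 72 h the groups did not overlap. The log2 fold change was -0.19 (SE 0.11, 95% interval -0.42 to 0.04, adjusted p = 1.00) at 24 h and -0.36 (SE 0.11, 95% interval -0.59 to -0.13, adjusted p = 0.215) at 72 h. With the narrower block *Aurkb* was called at 72 h (adjusted p = 0.0408, edgeR), and DESeq2 gave an adjusted p of 0.0857. *Incenp*, the scaffold, had log2 fold changes of -0.09 and -0.17, *Birc5* (survivin) of 0.06 and 0.06 and *Cdca8* (borealin) of -0.01 and -0.13 at 24 h and 72 h. *Sgo1*, which protects centromeric cohesin, had -0.01 and 0.00.

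With the narrower block, which compares the siRNAs within pairs of libraries, 724 genes (3.73%) were called at 72 h. *Spc24*, *Cenpt* and *Aurkb* were the 3 genes of the set among them (6.12% of 49), all lower, and 11 of 49 (22.4%) had an unadjusted p below 0.05, against 22.6% of all genes. How many of the 724 genes were lower is not given here. DESeq2 called 535 genes (2.76%) at 72 h, *Spc24* and *Cenpt* among them, and 24 genes (0.124%) at 24 h, *Spc24* among them. A fit of the 72 h libraries alone called 323 genes (1.78% of 18156), of which *Spc24* was the only one of the set. At 24 h the narrower block called 0 of 49 (background 0.0%). Limma-voom called 0 of the 49 at both times (background 0.0103% at 24 h and 0.0206% at 72 h), with 2 unadjusted p-values below 0.05 at 24 h (background 3.01%) and 4 at 72 h (14.1%).

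**Figure D2:**
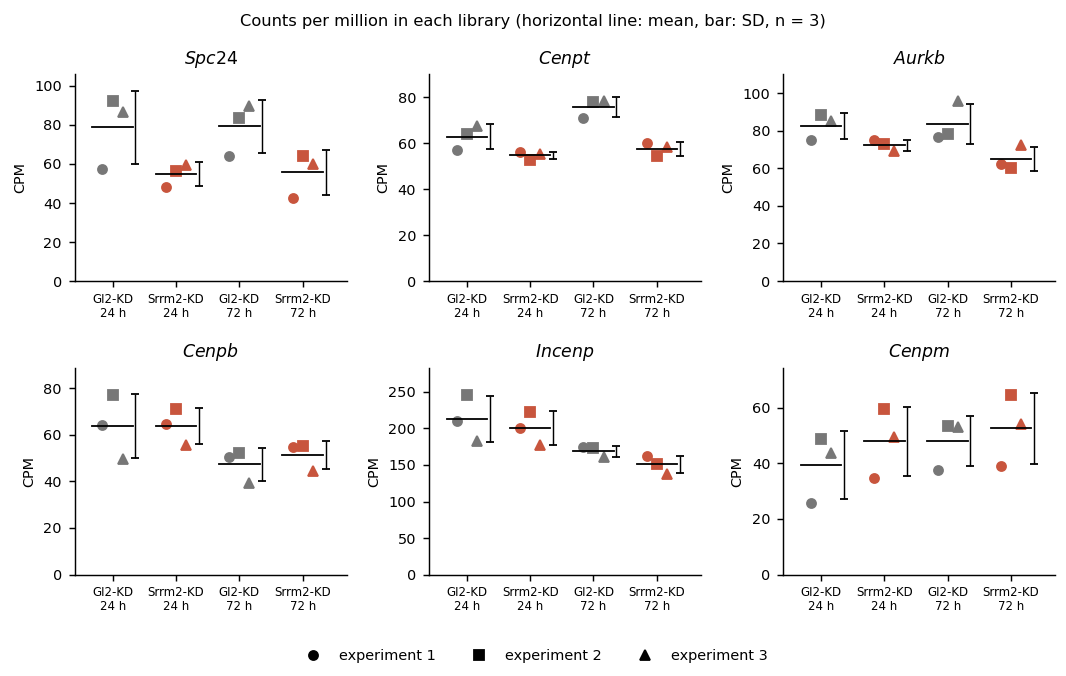
CPM in each library for *Spc24*, *Cenpt*, *Aurkb*, *Cenpb*, *Incenp* and *Cenpm* (Gl2-KD grey, Srrm2-KD red; circle, square and triangle are experiments 1, 2 and 3; horizontal line, mean; bar, SD; n = 3). At 72 h the Srrm2-KD libraries of *Spc24*, *Cenpt* and *Aurkb* lie below those of Gl2-KD. *Cenpb* and *Incenp* lie lower at 72 h than at 24 h within each experiment under both siRNAs, although the 2 times overlap for *Cenpb* in Gl2-KD.

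The kinases and cyclins that drive entry into mitosis had log2 fold changes of 0.02 to 0.11 at 24 h and of -0.07 to 0.19 at 72 h. *Ccnb1* encodes cyclin B1, the activator of Cdk1. *Ccnb1* was measured at 359, 378 and 377 CPM in Gl2-KD and 366, 405 and 431 CPM in Srrm2-KD at 24 h, and at 403, 372 and 324 CPM and 413, 463 and 378 CPM at 72 h. At both times every Srrm2-KD library exceeded the Gl2-KD library of its experiment, by 0.11 (SE 0.11, 95% interval -0.13 to 0.34, adjusted p = 1.00) and by 0.19 (SE 0.11, 95% interval -0.05 to 0.42, adjusted p = 0.502). *Plk1*, the Polo-like kinase, had overlapping values throughout. Levels of *Plk1* were 150.4, 163 and 136 CPM in Gl2-KD and 157, 152 and 145 CPM in Srrm2-KD at 24 h, and 151, 142 and 123 CPM and 162, 137 and 137 CPM at 72 h, with a log2 fold change of 0.02 (SE 0.09, 95% interval -0.18 to 0.21, adjusted p = 1.00) and of 0.07 (SE 0.09, 95% interval -0.12 to 0.27, adjusted p = 0.775). *Cdk1* had log2 fold changes of 0.04 and 0.05, *Aurka* of 0.04 and 0.08, *Ccna2* of 0.04 and 0.08 and *Ccnb2* of 0.04 and -0.07.

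For exit from mitosis, *Cdc20*, the activator of the APC/C, had near-equal means under both siRNAs at 24 h (322 ± 72.5 and 323 ± 53.4 CPM, SD, n = 3). In Gl2-KD cells, *Cdc20* stood at 249, 394 and 324 CPM at 24 h and at 275, 333 and 311 CPM at 72 h, and in Srrm2-KD cells at 276, 381 and 312 CPM and at 275, 323 and 305 CPM, and knockdown gave a log2 fold change of 0.01 (SE 0.09, 95% interval -0.20 to 0.22, adjusted p = 1.00) and of -0.02 (SE 0.09, 95% interval -0.23 to 0.18, adjusted p = 0.941). *Ube2c*, the E2 enzyme of the APC/C, had log2 fold changes of -0.02 and -0.16, and *Espl1* (separase) of -0.16 and -0.17. *Pttg1* encodes securin, the inhibitor of separase, and varied most of all 49 genes. *Pttg1* was measured at 15.6, 28.7 and 34.8 CPM in Gl2-KD and 17.5, 32.8 and 40.6 CPM in Srrm2-KD at 24 h, and at 16.2, 40.4 and 48.7 CPM and 16.6, 59.6 and 55.0 CPM at 72 h. Its knockdown log2 fold changes were 0.19 (SE 0.16, 95% interval -0.16 to 0.55, adjusted p = 1.00) and 0.28 (SE 0.16, 95% interval -0.08 to 0.63, adjusted p = 0.511), the widest intervals of the set together with those of *Cenpk*. Experiment 1 gave the lowest value in every group.

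The motors *Kif11* (Eg5, which holds the spindle poles apart), *Kif2c* and *Kif20a* and the spindle factor *Tpx2* had log2 fold changes of 0.06 to 0.14 at 24 h and of 0.05 to 0.12 at 72 h. Levels of *Kif11* were 235, 159 and 170.3 CPM in Gl2-KD and 227, 172 and 188 CPM in Srrm2-KD at 24 h, and 276, 181 and 132 CPM and 281, 193 and 161 CPM at 72 h. Experiment 1 gave the highest value of *Kif11* in every group. *Top2a*, the topoisomerase that untangles sister chromatids, and *Mki67*, which coats mitotic chromosomes and marks cycling cells, had log2 fold changes of 0.07 and 0.04 at 24 h and of 0.08 and 0.00 at 72 h. In Gl2-KD cells, *Top2a* stood at 1056, 825 and 915 CPM at 24 h and at 1237, 1022 and 775 CPM at 72 h, and in Srrm2-KD cells at 1043, 876 and 1005 CPM and at 1197, 1101 and 890.0 CPM. *Mki67* was measured at 418, 271 and 261 CPM in Gl2-KD and 420.0, 275 and 279.8 CPM in Srrm2-KD at 24 h, and at 473, 316 and 265 CPM and 506, 308 and 252 CPM at 72 h. For both genes the siRNA groups overlapped at each time and experiment 1 gave the highest value in each group.

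The genes of the transcription factors *Mybl2* and *Foxm1* had lower mean values in Srrm2-KD at 72 h without passing the threshold. Levels of *Mybl2* were 965, 913 and 1199 CPM in Gl2-KD and 1089, 839.6 and 1053 CPM in Srrm2-KD at 24 h, and 918, 1039 and 1405 CPM and 826, 783 and 1206 CPM at 72 h. *Mybl2* had a log2 fold change of -0.03 (SE 0.12, 95% interval -0.30 to 0.23, adjusted p = 1.00) at 24 h and of -0.26 (SE 0.12, 95% interval -0.53 to 0.00, adjusted p = 0.39) at 72 h, with lower values in each experiment at 72 h. In Gl2-KD cells, *Foxm1* stood at 76.7, 63.1 and 61.5 CPM at 24 h and at 79.3, 62.6 and 74.4 CPM at 72 h, and in Srrm2-KD cells at 84.6, 60.8 and 56.7 CPM and at 79.5, 51.4 and 64.5 CPM. *Foxm1* had -0.01 (SE 0.11, 95% interval -0.25 to 0.24, adjusted p = 1.00) and -0.16 (SE 0.11, 95% interval -0.40 to 0.08, adjusted p = 0.574). Genes with both CCAAT and CHR letters in a promoter window (22 genes) had a median log2 fold change of 0.03 at 24 h and 0.04 at 72 h, and the 19 other genes with a window had 0.02 and 0.04. No difference between the knockdown effects at 72 h and 24 h was called in any of the 49 genes (background 0.0%), and 0 had an unadjusted p below 0.05, against 1.64% of all genes.

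Time in culture was compared within each siRNA, 72 h against 24 h. Only the cells collected at 72 h were transfected again, and they were also longer in serum-free medium. Time, the repeated transfection and the longer growth without serum therefore cannot be told apart here. In Gl2-KD, 282 genes (1.45%) were called and 0 of the 49, and 7 of the 49 (14.3%) had an unadjusted p below 0.05, against 16.8% of all genes. The median log2 fold change was -0.00 for the 49 and 0.02 for all genes. *Cenpb* (chr2:131175182-131180067, minus strand), whose product binds satellite DNA of the centromere, was nearest the threshold. *Cenpb* was measured at 64.1, 77.1 and 49.5 CPM in Gl2-KD and 64.6, 71.0 and 55.5 CPM in Srrm2-KD at 24 h, and at 50.4, 52.3 and 39.1 CPM and 54.6, 55.1 and 44.6 CPM at 72 h. Its values were lower at 72 h in 3 of 3 experiments under each siRNA, with a log2 fold change of -0.42 (SE 0.09, 95% interval -0.62 to -0.22, adjusted p = 0.0504) in Gl2-KD and of -0.31 (SE 0.09, 95% interval -0.51 to -0.11, adjusted p = 0.14) in Srrm2-KD. The times overlapped in Gl2-KD, where 49.5 CPM at 24 h lay below 50.4 and 52.3 CPM at 72 h, and not in Srrm2-KD. In Gl2-KD the call was made in 7 of 25 other settings, among them DESeq2 (adjusted p = 0.00128) and limma-voom (0.04), so that it depends on the setting. *Cenpb* overlaps *Spef1* on the same strand.

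*Incenp* and *Mad1l1* also had lower values at 72 h in 3 of 3 experiments under each siRNA. Levels of *Incenp* were 209.7, 246 and 183 CPM in Gl2-KD and 201, 223 and 177 CPM in Srrm2-KD at 24 h, and 174, 173 and 160.4 CPM and 162, 151 and 138 CPM at 72 h. The 72 h libraries lay below all 24 h libraries of the same siRNA, with a log2 fold change of -0.32 (SE 0.09, 95% interval -0.52 to -0.12, adjusted p = 0.104) in Gl2-KD and of -0.41 (SE 0.09, 95% interval -0.61 to -0.21, adjusted p = 0.0814) in Srrm2-KD. DESeq2 gave adjusted p-values of 0.0236 and 0.00542 for them. It called 1298 genes (6.69%) with time in Gl2-KD, *Cenpb* and *Incenp* among them, and 1053 (5.43%) in Srrm2-KD, with *Cenpb*, *Incenp* and *Mad1l1*, and limma-voom called 482 (2.48%) in Gl2-KD, with *Cenpb*. *Mad1l1*, a checkpoint protein gene, had -0.20 (SE 0.09, 95% interval -0.40 to -0.01, adjusted p = 0.274) in Gl2-KD and -0.31 (SE 0.09, 95% interval -0.50 to -0.12, adjusted p = 0.128) in Srrm2-KD. The genes with higher values at 72 h in Gl2-KD and an unadjusted p below 0.05 were *Cenpm* (0.32), *Dsn1* (0.30), *Spc25* (0.28) and *Cenpt* (0.27), with adjusted p-values of 0.139 to 0.182. In Srrm2-KD, 107 genes (0.551%) were called and 0 of the 49, with 5 of the 49 (10.2%) at an unadjusted p below 0.05, against 16.3% of all genes. The comparisons of time share their libraries with those of knockdown.

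More genes were called between the 3 experiments than between siRNAs or times. A joint test of the experiments called 34 of the 49 genes (69.4%), against 58.5% of all 19410 genes. Of the 34, 14 stood higher and 20 lower in experiment 1 than in the mean of experiments 2 and 3. Of all genes, 29.1% were called and stood higher, and 29.4% were called and stood lower. The joint test itself gives no direction, and a gene can be called because experiments 2 and 3 differ. All 4 libraries of experiment 1 lay above the other 8 for 8 genes (16.3%, against 16.7% of all genes), which were *Knl1*, *Cenpc1*, *Cenpe*, *Cenpf*, *Sgo1*, *Kif11*, *Mki67* and *Foxm1*. They lay below the other 8 for 10 genes (20.4%, against 13.7%), which were *Pmf1*, *Cenpa*, *Cenph*, *Cenpm*, *Bub3*, *Birc5*, *Cdca8*, *Aurka*, *Cdc20* and *Pttg1*. Without experiment 1, experiments 2 and 3 differed in 8 of the 49 genes, or 16.3%, against 17.8% of all genes tested there, and 6 of the 8 were higher in experiment 2.

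**Figure D3:**
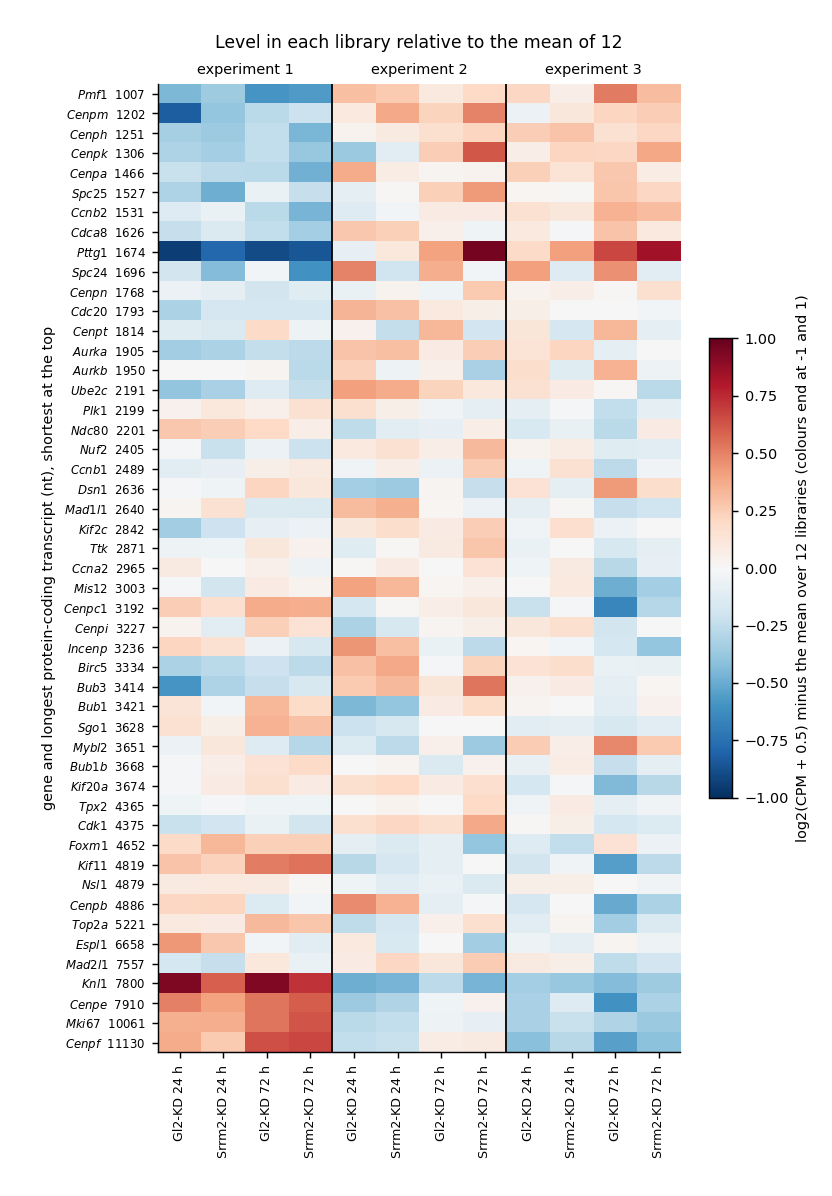
Level of each of the 49 genes in each of the 12 libraries, as log2(CPM + 0.5) minus the gene's mean over the libraries (blue lower, red higher, colours ending at -1 and 1), with genes ordered by the length of their longest protein-coding transcript and libraries by experiment. The 16 shortest genes at the top were lower in experiment 1 on average, and 12 of the 16 longest at the bottom were higher. Of all genes tested at these lengths, 29.92% and 75.89% were higher.

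The direction of the difference followed transcript length. Across the 49 genes, the log2 difference between experiment 1 and the mean of experiments 2 and 3 had a Pearson correlation of 0.77 and a Spearman correlation of 0.76 with log2 transcript length, against 0.35 and 0.46 across 19314 genes with a length. For the differences fitted by edgeR, in place of those of log2(CPM + 0.5), the Pearson correlation was 0.77 across the 49 genes and 0.2 across all genes. These correlations are across genes of the same 12 libraries and are given as a description. The values for all genes include many genes of lower level, since only 7501 of those tested reached the mean of *Cenpk*, the lowest of the 49. No correlation was computed for genes of matched level, so the trend is not shown to be particular to the 49. Computed within each of the 4 groups, the Pearson correlation of the 49 genes was 0.68 to 0.76. The 16 genes with the shortest transcripts (1007 to 2191 nt) were all lower in experiment 1, with a median of -0.42, while the 17 of middle length (2199 to 3628 nt) had a median of 0.03 and the 16 longest (3651 to 11130 nt) of 0.18, with 12 higher and 4 lower. All genes tested, split at the same lengths, had medians of -0.21, -0.02 and 0.30. Of them, 29.92%, 47.27% and 75.89% stood higher in experiment 1, so that the count for the 16 longest was near the share of all genes.

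*Knl1*, at 7800 nt, had the largest positive difference, 1.19, followed by *Cenpe* (0.77), *Cenpf* (0.73), *Mki67* (0.70) and *Kif11* (0.59). *Pttg1*, at 1674 nt, had the largest negative one, -1.30, followed by *Pmf1* (-0.74), *Cenpm* (-0.64) and *Cenph* (-0.52). A fit with offsets that remove, in each library, a smooth trend with transcript length and GC content was added after the data were seen. Because the trend was estimated from these same data, a weaker relation to length is built into this fit. With it, the fitted difference of *Knl1* went from 1.2 to 0.04, of *Cenpe* from 0.76 to -0.12, of *Mki67* from 0.70 to -0.22 and of *Cenpf* from 0.73 to -0.34, while among the short genes that of *Pmf1* went from -0.74 to -0.23 and that of *Pttg1* from -1.32 to -1.29. Of the 16 shortest genes 13 remained lower in experiment 1, with a median of -0.18, and 34 of the 49 genes (69.4%) were called, against 52.1% of all genes. For knockdown the offsets called 0 of the 49 at either time (background 0.00515% at 24 h and 0.0% at 72 h).

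**Figure D4:**
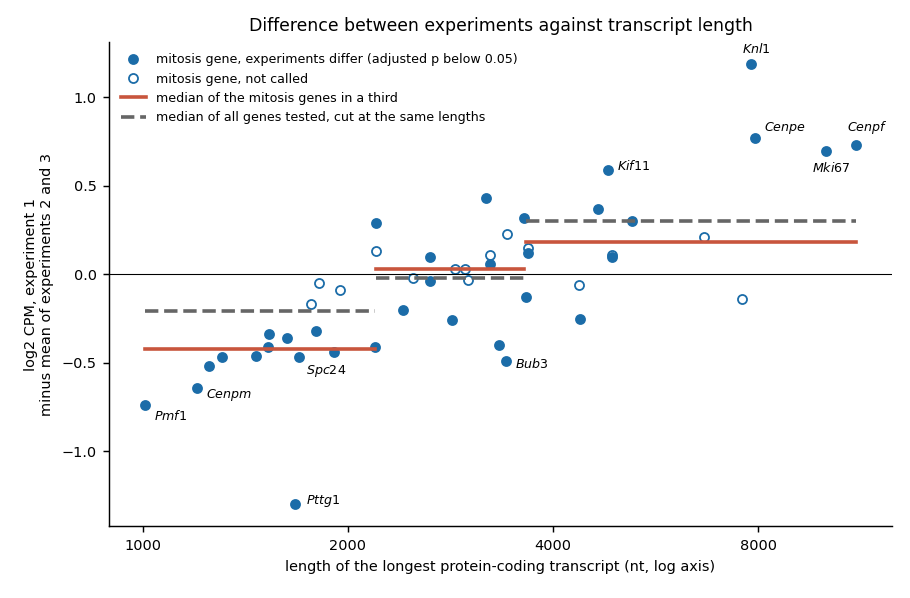
Difference between experiment 1 and the mean of experiments 2 and 3, in log2 CPM, against the length of the longest protein-coding transcript (log axis) for the 49 genes; filled points had an adjusted p below 0.05 in the joint test of the experiments. Red lines are medians of the 49 genes in 3 classes of length and dashed grey lines those of all genes tested at the same lengths, which rise from -0.21 to 0.30.

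Beyond the 49 genes, 148 further genes of the cell cycle were read from 7 lists, all of which passed the filter. None was called after knockdown at 24 h or 72 h (background 0.0%), and 3 (2.03%, against 2.62% of all genes) and 21 (14.2%, against 12.9%) had unadjusted p-values below 0.05. Their log2 fold changes had medians of -0.00 and -0.02. Of 23 other kinetochore genes, *Hjurp*, the chaperone that deposits CENP-A, had the smallest p at 72 h, with a log2 fold change of -0.38 ± 0.09 (SE, adjusted p = 0.152). Among 19 cohesin and condensin genes it was *Stag1*, a cohesin subunit, at -0.45 ± 0.11 (SE, adjusted p = 0.17), and among 28 other spindle and cytokinesis genes it was *Cit*, the citron kinase of the cleavage furrow, at -0.53 ± 0.12 (SE, adjusted p = 0.153). The 17 APC/C genes were led by *Anapc2* at -0.32 ± 0.11 (SE, adjusted p = 0.263), and the 19 genes of MuvB, E2F and Cdc25 regulators by *Pkmyt1*, an inhibitory kinase of Cdk1, at -0.78 ± 0.23 (SE, adjusted p = 0.211). For 30 replication and G1/S genes the smallest p at 72 h was that of *Chaf1b*, a histone chaperone subunit, at -0.28 ± 0.10 (SE, adjusted p = 0.312), and for 12 G1 cyclins and Cdk inhibitors that of *Cdkn2a*, at -0.92 ± 0.23 (SE, adjusted p = 0.155). DESeq2 called 6 of the 148 at 72 h (4.05%, against 2.76% of all genes), all lower, which were *Cdkn2a* (adjusted p = 0.00507), *Cit* (0.0159), *Hjurp* (0.0183), *Stag1* (0.0301), *Pkmyt1* (0.032) and the condensin gene *Ncapd2* (0.0424). The narrower block called 8 (5.41%, against 3.73%), of which 7 were lower, and limma-voom called 0. The direction of all genes called is not given here, so these counts of lower genes have no background. At 24 h the 3 genes with an unadjusted p below 0.05 were *Ckap2l*, a spindle protein gene, and *Cdc23*, an APC/C subunit, with log2 fold changes of 0.33 and 0.27, and *Ccnd3*, cyclin D3, with -0.30, and DESeq2, limma-voom and the narrower block each called 0. *Cdc23* overlaps *Kif20a*, one of the 49 genes, on the opposite strand, so that their counts may not be independent.

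With time in culture, 1 of the 148 (0.676%) was called under each siRNA, against 1.45% of all genes in Gl2-KD and 0.551% in Srrm2-KD, and 20 (13.5%, against 16.8%) and 30 (20.3%, against 16.3%) had unadjusted p-values below 0.05. *Cdk6*, a kinase of the G1 phase, was lower at 72 h, with a log2 fold change of -0.53 ± 0.09 (SE, adjusted p = 0.0245) in Gl2-KD and of -0.68 ± 0.09 (SE, adjusted p = 0.0317) in Srrm2-KD, in 3 of 3 experiments each. The call was kept in 13 of 25 other settings in Gl2-KD and in 14 of 25 in Srrm2-KD, with log2 fold changes of -0.62 to -0.46 and of -0.73 to -0.58 and adjusted p-values of 7.18e-06 to 1.00 and of 1.47e-08 to 1.00. It was lost under both siRNAs with no replicate block (1.00 each) and in a fit of that siRNA alone (0.0887 and 0.221). In Gl2-KD it was also lost without any 1 experiment, any 1 Gl2-KD library or the 24 h Srrm2-KD library of experiment 2, at 0.0501 to 0.568. In Srrm2-KD it was lost without experiment 2 or 3, any 1 Srrm2-KD library of 24 h, the 72 h Srrm2-KD library of experiment 2 or 3, or the 24 h Gl2-KD library of experiment 1 or 3, at 0.0505 to 0.653. DESeq2 called 8 of the 148 in Gl2-KD (5.41%, against 6.69% of all genes) and 4 in Srrm2-KD (2.7%, against 5.43%), *Cdk6* among both. *Cdk6* was measured at 80.4, 47.5 and 35.8 CPM at 24 h and 51.6, 31.6 and 27.9 CPM at 72 h in Gl2-KD, and at 76.2, 48.5 and 38.1 CPM and 49.6, 28.0 and 24.4 CPM in Srrm2-KD. In the joint test of the experiments, 106 of the 148 (71.6%, against 58.5% of all genes) were called. Of these, 56 (37.8% of the 148, against 29.1% of all genes) stood above the mean of experiments 2 and 3 in experiment 1. The other 50 (33.8%, against 29.4%) stood below it.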

How the data were processed

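PolyA+ RNA was sequenced in 12 libraries, 3 experiments of 4 groups (Gl2-KD and Srrm2-KD at 24 h and 72 h). The authors quantified the reads with Kallisto 0.46.1 on the GENCODE M24 transcripts and deposited estimated counts per gene, not normalized, of which 33.9% to 43.1% per library were not whole. Their edgeR model held the RNA processing day as a covariate, and since no source used here gives that day by library, the experiment number took its place. Counts were rounded to whole numbers. Totals were 73933196 to 153343831 per library. Identifiers were matched to GENCODE M21 (GRCm38) for symbols, positions and lengths, which left 294 of 42450 (0.175% of counts) without a symbol.

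Genes were kept by filterByExpr (minimum count 10, minimum total 15; 19410 genes), scaled by TMM and tested in edgeR 4.0.16 (R 4.3.3) by the quasi-likelihood F-test with a group and an experiment term over all 12 libraries, with Benjamini-Hochberg adjustment over all genes and a threshold of 0.05. CPM were computed from the library totals over the tested genes times the TMM factors. Differences within an experiment used log2(CPM + 0.5). The standard error was the size of the log2 fold change divided by the square root of F, and intervals used t with 11.09 degrees of freedom. The residual degrees of freedom were 6. The scripts were tested on simulated data. The labels number the replicates of each group 1 to 3, and the library names call them experiments. Their pairing was checked: deviations from the group means in same-numbered libraries correlated at 0.281 to 0.747 over 18 pairs, and those of different numbers at -0.628 to 0.231 over 36 pairs, so experiment was kept as the block. The study describes the 3 as independent biological replicates of 1 cell line. In the main test, differences in level between experiments were taken up by the experiment term. The p-values for knockdown and time therefore measure the spread left after it over all 12 libraries.

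The 49 genes, the lists of further genes and the markers were chosen with earlier results of these data known. Values in every library were given for the 5 genes with the smallest p for knockdown at 24 h, at 72 h and for time in Gl2-KD, and for 1 or more fixed genes of most roles; of the further lists, called genes or else the gene with the smallest p at 72 h were named. *Ncapd2*, *Ckap2l*, *Cdc23*, *Ccnd3*, *Pttg1* and *Mad1l1* were added after their values were seen. Alternatives were DESeq2 1.42.0, limma-voom 3.58.1, other scalings, filters and blocks, subsets by time or siRNA, and the omission of each library and each experiment. Offsets for transcript length and GC content (natural splines with 5 degrees of freedom) were added after the data were seen. The deposited table was the only file of values analysed here.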

Additional observations from a re-analysis of the deposited data

How the results depend on the processing

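For knockdown at 24 h, 0 genes were called, against 24 in DESeq2, 2 in limma-voom and 1 each with edgeR's newer quasi-likelihood method, with no filter, when every library had to reach 10 counts and with offsets for length and GC content. Of the 49 genes DESeq2 called 1. At 72 h, 0 genes were called, against 535 in DESeq2, 4 in limma-voom, 5 with the newer method, 42 with no filter, 1 with at least 10 counts in every library, 724 with a replicate block narrowed to 1 experiment and time and 323 in the 72 h libraries alone. Of the 49 genes the counts were 2 in DESeq2, 3 with that replicate block and 1 in the 72 h libraries alone. With no replicate block 0 genes were called after knockdown at either time. For time in Gl2-KD, the 282 genes became 1298 in DESeq2, 482 in limma-voom, 624 with the newer method, 476 with at least 10 counts in every library, 158 in Gl2-KD alone and 0 with no replicate block. They became 412 with the offsets, 256 with DESeq2's size factors in edgeR and 269 with library totals. Of the 49 genes DESeq2 and the offsets called 2 each, and limma-voom, the newer method, DESeq2's size factors in edgeR, library totals and the filter of at least 10 counts 1 each. For time in Srrm2-KD, the 107 genes became 1053, 259 and 279 in DESeq2, limma-voom and the newer method, 212 with no filter, 176 with at least 10 counts, 189 with the offsets and 0 with no replicate block or in Srrm2-KD alone. Of the 49 genes DESeq2 called 3 and the offsets 1. For the difference between knockdown effects DESeq2 called 2 genes and the fit with no filter 1. Omitting 1 library or experiment gave 0 to 10 genes at 24 h, 0 to 55 at 72 h, 0 to 387 and 0 to 135 for time in Gl2-KD and Srrm2-KD, 0 to 2 for the difference and 3387 to 11258 between experiments, with 0 of the 49 in the first 5 and 8 to 34 in the last. The cause of these changes was not tested. With 3 experiments per group, *Srrm2* itself, at log2 fold changes of -1.22 and -1.16, did not pass the threshold of the main test, so that a missed threshold does not show that a gene was unaffected.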

Other observations

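Across the 49 genes, the log2 fold changes of time and knockdown were lower for transcripts of higher GC content. The Pearson correlation with GC content was -0.59 for time in Srrm2-KD (all genes -0.02), -0.44 for knockdown at 72 h (-0.15) and -0.54 for the difference between knockdown effects (-0.07), against -0.21 for knockdown at 24 h (-0.09) and -0.30 for time in Gl2-KD (0.06). Within experiments 1, 2 and 3 the correlation for knockdown was 0.47, -0.50 and -0.36 at 24 h and 0.06, -0.47 and -0.56 at 72 h, so that experiment 1 did not share the sign of the other two. These values describe genes of the same 12 libraries and carry no test. The values for all genes were not matched to the 49 by level.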
